A study of Mus musculus with 20 samples.

Results

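Lipid-associated macrophages are a macrophage state named in fat, liver and tumors that take up and handle lipid. The 7 genes described here, Trem2, Spp1, Gpnmb, Apoe, Fabp5, Cd9 and Lgals3, are commonly used to mark it. They were found by gene name in the tissue count table and by Ensembl identifier in the table of sorted cells, and all 7 were present among the 54532 genes of each table. The rule is by name and uses no measured value.

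The samples came from wild-type C57BL/6 mice with colorectal liver metastasis (CRLM), made by giving 1000000 Mc38 cells, a mouse colon adenocarcinoma line of the same strain, by a route that seeds the liver. The tissue libraries were con (liver at day 0 after normal saline, 2 libraries), Lt and Mt3 (low-content and medium-content tumor at day 9, 2 libraries each), Mt2 and Mt1 (medium-content tumor at day 11, 2 libraries each), Ht (high-content tumor at day 12, 3 libraries) and L-con (liver remote from any tumor at day 12, 1 library, used in no test). The sorted libraries were F4/80+ and CD11b+ cells taken by microbeads from Mt2 metastases at day 11, with 3 libraries each. All groups but con had received Mc38 cells. Sex was male in the labels of the tissue samples and female in the study's methods, and age was not in the labels. Mc38 is 1 line, and bead selection on F4/80 or CD11b keeps every cell that carries that surface protein.

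TREM2 is a lipid-sensing receptor of macrophages that signals through the adaptor TYROBP. SPP1 (osteopontin) is a secreted matrix protein that binds CD44 and integrins, GPNMB is a transmembrane glycoprotein of lysosome-rich macrophages, and LGALS3 is a secreted galectin that binds sugars on glycoproteins. APOE carries cholesterol and is made by macrophages, but in liver it is above all a hepatocyte product. FABP5 carries fatty acids inside cells and CD9 is a tetraspanin of the cell surface. In bulk samples, a lower level from fewer cells of a type cannot be told apart from less RNA per cell.

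Tissue libraries held 16032085 to 18246623 counts and sorted libraries 17785496 to 20548370. Levels are given as CPM (counts scaled to a common library size) after TMM scaling over all samples, with Ht_1 and Ht_3 summed into 1 sample because the study's methods describe them as made identical. A gene counted as called when edgeR's quasi-likelihood test put its adjusted p at or under 0.05 and its log2 change was 1 or more in size. Marker genes moved along with these groups, and their part in the results below was not tested. Tissue with tumor also holds the Mc38 cells themselves, and Ht samples were mostly tumor by the study's methods. No marker of Mc38 cells is given here, and their part in the level of any gene was not tested. The summed level of 12 hepatocyte markers ran from 184144 to 210632 CPM in con, from 3823 to 5500 CPM in Ht and from 228 to 458 CPM in the sorted cells. That of 12 macrophage markers ran from 505 to 785 CPM in con, from 2607 to 2705 CPM in Ht and from 15861 to 27261 CPM in the sorted cells, with no marker at 0 in any sorted library. From con to Ht, neutrophil markers went from 3.62 to 5.22 CPM up to 184 to 201 CPM. Their mean log2(CPM + 1) was 0.43 to 0.52 in con, 1.93 to 1.96 in Lt and 1.89 to 2.09 in Ht. Endothelial markers went from 559 to 724 CPM in con down to 211 to 232 CPM in Ht. Kupffer cell markers were 337 to 448 CPM in con, 727 to 771 CPM in Lt and 81.8 to 135 CPM in Ht. The 8 monocyte markers summed to 1806 to 1831 CPM in con and 2156 to 2159 CPM in Ht, and their mean log2(CPM + 1), which weights each gene equally, was 2.12 to 2.46 and 5.91 to 6.22. The summed level of 9 fibroblast and stellate markers ran from 296 to 409 CPM in con, from 6261 to 7094 CPM in Ht and from 168 to 534 CPM in the sorted cells.

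From con to Lt, 4 of the 7 genes were called higher and 0 lower, where 12.4% of 17187 genes tested were called higher and 0.256% lower. From con to Mt (the mean of Mt3, Mt2 and Mt1) the counts were again 4 and 0, where 30.5% of all genes were called, 20.2% higher and 10.3% lower. From con to Ht, 5 were called higher and 2 lower, and the libraries of con and Ht did not overlap for any of the 7 genes, as was so for 85.7% of all genes tested. There, 49.9% of all genes were called, 25.8% higher and 24.1% lower. These comparisons share the con libraries, so they are set side by side and not counted as separate evidence. In them, and from Lt or Mt to Ht, tumor content and day change together and cannot be told apart. From Lt to Ht, 2 genes were called higher and 2 lower (31.9% of all genes called, 11.7% higher and 20.2% lower), and from Mt to Ht, 1 higher and 2 lower (14.9% of all genes called, 1.5% higher and 13.4% lower). With scaling by total counts the median of all genes moved to 1.27 from con to Ht, 0.72 from con to Mt, 0.87 from Lt to Ht and 0.55 from Mt to Ht, and the share of calls that were higher went from 51.7% to 79.7%, 66.3% to 90.6%, 36.6% to 74.9% and 10.0% to 59.3%. The median change of the 7 genes was 3.46 from con to Ht on the log2 scale, where the median of all genes was 0.09.

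**Figure D1:**
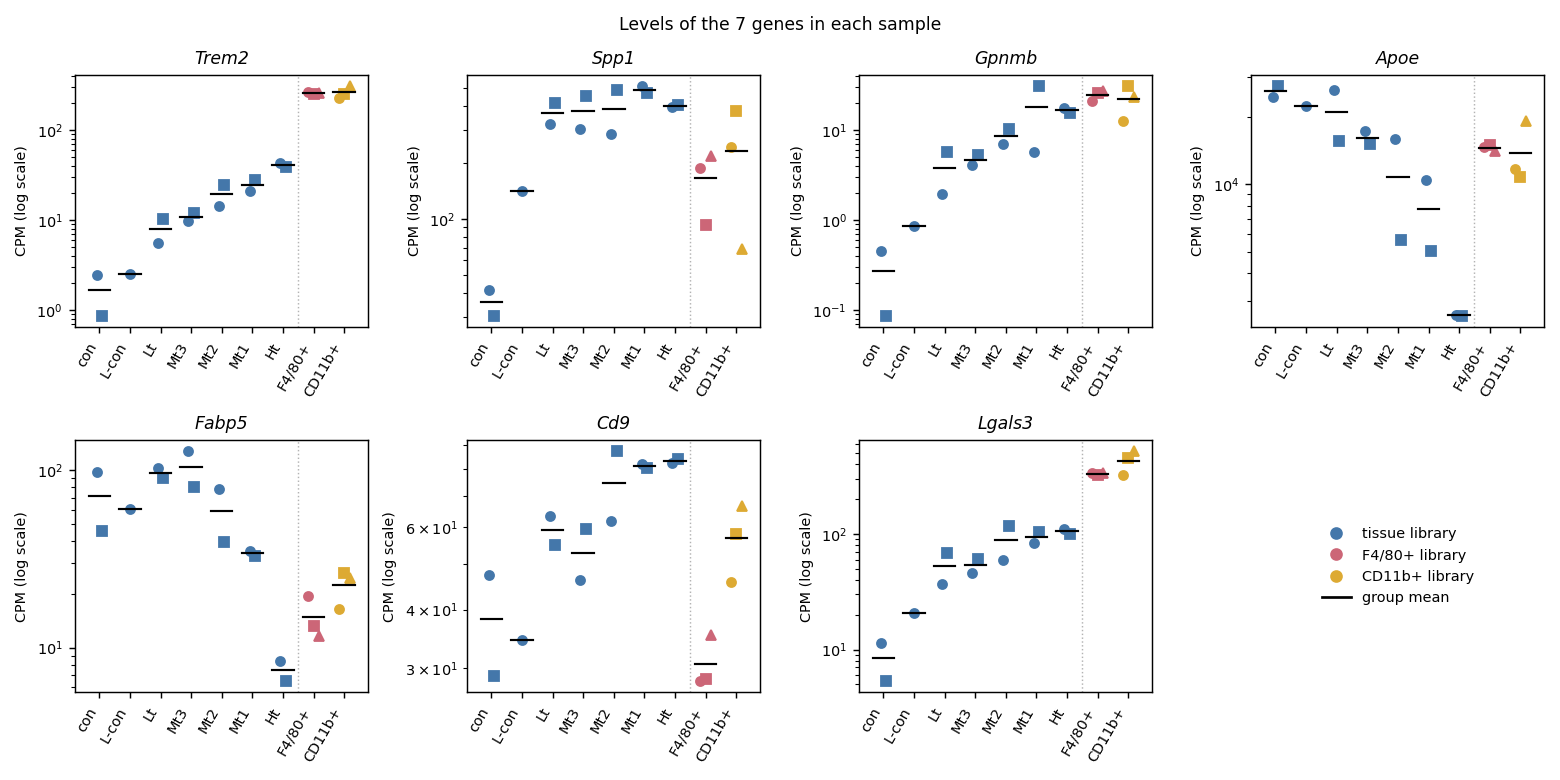
Level of each gene in every sample, in CPM on a log axis, for the tissue groups (blue) and the sorted F4/80+ (red) and CD11b+ (yellow) cells; symbols are libraries and black lines are group means. Trem2 and Lgals3 rise from con to Ht and are highest in sorted cells, Spp1 is higher in every tumor-bearing tissue library than in con, with sorted libraries spread between con and the upper tissue values, and Apoe and Fabp5 are lowest in Ht.

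**Figure D2:**
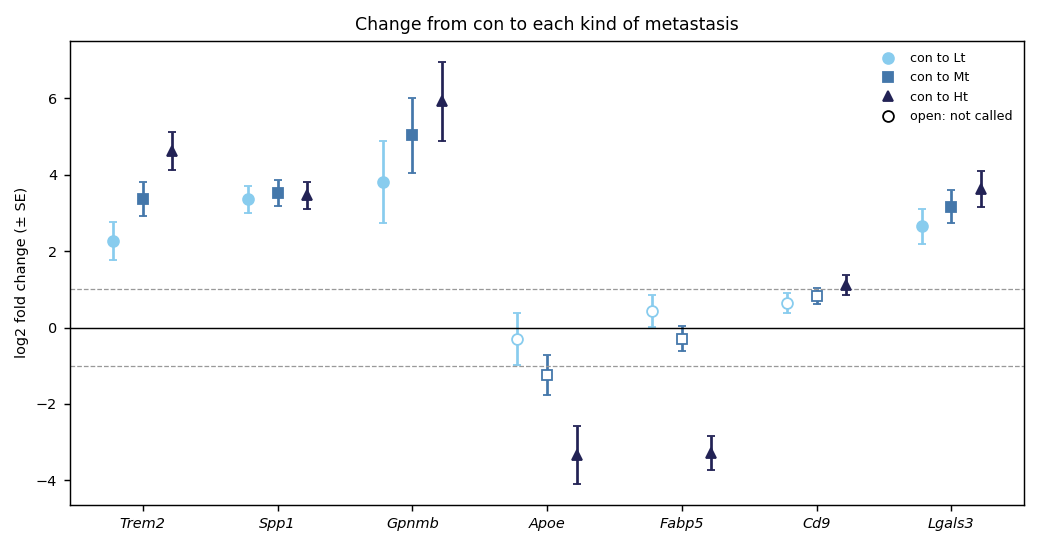
log2 fold change (± SE, from the fit over 13 tissue samples) of each gene from con to Lt, Mt and Ht; filled symbols were called and open symbols were not, and dashed lines mark a log2 change of 1. Trem2, Spp1, Gpnmb and Lgals3 were called higher in all 3 comparisons, and Apoe and Fabp5 were called lower only in Ht.

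Trem2 (ENSMUSG00000023992, GRCm38 chr17:48346401-48354147, plus strand) was the receptor of the group and was called higher in all 5 tissue comparisons. Its level was 2.47 and 0.863 CPM in the con libraries, 2.51 in L-con, 5.52 and 10.3 for the Lt pair, 9.68 and 11.9 for the Mt3 pair, 14.3 and 24.5 for the Mt2 pair, 20.99 and 28.2 for the Mt1 pair, and 43.1 and 39.3 for the Ht pair. Both Ht samples lay above every other tissue library, and neighbouring groups overlapped from Lt to Mt3 and from Mt2 to Mt1. Trem2 rose 24.5-fold from con to Ht (log2 4.61 ± 0.50 SE, adjusted p = 1.5e-04), 4.78-fold from con to Lt (log2 2.26 ± 0.50, adjusted p = 0.0159) and 2.38-fold from Mt to Ht (log2 1.25 ± 0.31, adjusted p = 0.0231). Without con replicate 2 or Lt replicate 2 the change from con to Lt was 1.66 and 1.73 and was no longer called (adjusted p = 0.113 and 0.120). The call from Mt to Ht was lost without Mt3 replicate 1 (1.21, adjusted p = 0.0580), without Mt1 replicate 1 (1.19, adjusted p = 0.0511) and without either Ht sample (1.19 and 1.32, adjusted p = 0.182 and 0.129). It was also lost with Mt as 1 group (1.17, adjusted p = 0.0774).

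The 250 bases upstream of the RefSeq start of Trem2 (GRCm38.p6, chr17:48346151-48346400, plus strand) are shown because Trem2 changed in every tissue comparison. Capitals mark the letters TGAATCA at position -9 from the start. They match TGANTCA, the pattern searched for AP-1, in which N is any base.

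Trem2: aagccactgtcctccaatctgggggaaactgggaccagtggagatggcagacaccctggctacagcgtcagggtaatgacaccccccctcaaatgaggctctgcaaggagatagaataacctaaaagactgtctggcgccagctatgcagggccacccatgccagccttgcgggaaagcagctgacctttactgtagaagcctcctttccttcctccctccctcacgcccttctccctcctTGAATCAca

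Of 8 genes of TREM2 signaling (Tyrobp, Hcst, Syk, Plcg2, Inpp5d, Card9, Adam10 and Adam17), 4 were called higher from con to Lt, 7 from con to Mt and 8 from con to Ht, and 0 were called lower. Of all genes, 12.4%, 20.2% and 25.8% were called higher in these comparisons. The median of the list was 2.54 from con to Ht, where the median of all genes was 0.09. The largest rises were those of Inpp5d, the phosphatase SHIP1 (7.88 to 64.5 CPM, log2 3.01 ± 0.37, adjusted p = 2.2e-04), and Card9, an adaptor downstream of SYK (0.862 to 6.82 CPM, log2 2.97 ± 0.69, adjusted p = 0.0045). Tyrobp itself was 18.95 and 12.4 CPM in con and 100 and 80.9 CPM in Ht (log2 2.51 ± 0.46, adjusted p = 0.0014). From Mt to Ht, where 1.5% of all genes were called higher, 0 of the 8 were called by edgeR (1 with scaling by total counts). The counts from con to Ht were the same with DESeq2 size factors and with scaling by total counts.

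Spp1 (ENSMUSG00000029304, chr5:104435118-104441050, plus strand) was the secreted ligand and was higher from Lt on. Its level was 41.5 and 30.4 CPM in con, 141 in L-con, 321 and 414 for the Lt pair, 304 and 452 for the Mt3 pair, 284 and 487 for the Mt2 pair, 513 and 469 for the Mt1 pair and 394 and 407 for the Ht pair. All tumor-bearing libraries lay above both con libraries and L-con, and Lt, Mt3, Mt2 and Ht overlapped. Both Mt1 libraries lay above both Lt and both Ht libraries, a difference that was not tested. Spp1 rose 10.3-fold from con to Lt (log2 3.36 ± 0.35, adjusted p = 0.0013) and 11.0-fold from con to Ht (log2 3.46 ± 0.35, adjusted p = 1.2e-04). From Lt to Ht the difference was 0.10 ± 0.32 (adjusted p = 0.814), and from Mt to Ht it was -0.05 ± 0.26 (adjusted p = 0.892), neither larger than its error. A short gene model on the same strand, Gm42793, overlaps Spp1 and held 0 to 181 counts per library where Spp1 held 352 to 11524, so reads shared by both are uncertain.

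The upstream bases of Spp1 (GRCm38.p6, chr5:104434861-104435110, plus strand) are shown because Spp1 was called higher than con already at Lt. Capitals mark AGGAAGT, the PU.1 motif, at position -112 from the start.

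Spp1: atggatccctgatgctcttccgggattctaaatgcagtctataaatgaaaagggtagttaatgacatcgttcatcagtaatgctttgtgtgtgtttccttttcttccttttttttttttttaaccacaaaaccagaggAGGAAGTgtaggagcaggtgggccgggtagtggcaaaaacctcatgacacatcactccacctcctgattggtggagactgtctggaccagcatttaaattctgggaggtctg

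Of 8 osteopontin receptors, 2 were called higher from con to Lt, 4 from con to Mt and 5 from con to Ht, with 0 called lower. The shares of all genes called higher were 12.4%, 20.2% and 25.8%. Cd44, a hyaluronan receptor, rose from 14.9 to 191 CPM from con to Ht (log2 3.66 ± 0.51, adjusted p = 3.7e-04). Itga4, an integrin chain of leukocytes, rose from 5.86 to 40.0 CPM (log2 2.75 ± 0.41, adjusted p = 4.7e-04). With scaling by total counts all 8 were called higher from con to Ht, where the median of all genes was 1.27 and that of the list 2.58. Under that scaling 8819 of 17187 genes were called higher there.

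Gpnmb (ENSMUSG00000029816, chr6:49036546-49070929, plus strand) had the largest fold of the 7 genes from con to Lt, Mt and Ht, at low levels. From con to Lt this rank was lost without con replicate 2 or Lt replicate 2 (log2 3.03 and 2.83). Spp1 was at least 3.13 there whichever library was left out. It had 5 and 1 counts in the con libraries (0.458 and 0.0863 CPM) and 10 counts in L-con (0.864 CPM). Its level was 1.94 and 5.67 CPM for the Lt pair, 4.07 and 5.24 for the Mt3 pair, 7.10 and 10.2 for the Mt2 pair, 5.70 and 30.7 for the Mt1 pair, and 17.8 and 15.6 for the Ht pair. Every library with tumor lay above con and L-con, and Mt1 replicate 2 stood above all other tissue libraries. The counts of Ht were 63.9 times those of con after scaling for library size (exact 95% interval 29.3 to 174, counting error only), and those of Lt 14.7 times (6.53 to 40.8). The fitted log2 change was 5.91 ± 1.04 from con to Ht (adjusted p = 0.0010), 3.81 ± 1.08 from con to Lt (adjusted p = 0.0454) and 2.10 ± 0.74 from Lt to Ht (adjusted p = 0.0448). The call from con to Lt was lost without con replicate 1, con replicate 2 or Lt replicate 2 (log2 5.37, 3.03 and 2.83, adjusted p = 0.114, 0.239 and 0.276), and that from Lt to Ht without Lt replicate 1 or either Ht sample (1.55, 2.00 and 2.19, adjusted p = 0.234, 0.130 and 0.102). The first was also lost with DESeq2 size factors in edgeR (3.73, adjusted p = 0.0521). It was lost too with the replicate number as a block and the numbers of Lt exchanged (3.85, adjusted p = 0.0614). The second was also lost with Ht_1 and Ht_2 only (1.99, adjusted p = 0.0546). From Mt to Ht the change of 0.88 ± 0.54 was not called (adjusted p = 0.246), but it was 1.44 without Mt1 replicate 2 (adjusted p = 0.0334).

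The upstream bases of Gpnmb (GRCm38.p6, chr6:49036268-49036517, plus strand) are shown for the gene with the largest rise from con. None of the motifs searched (TGANTCA for AP-1, CACGTG for the E-box and AGGAAGT for PU.1, on both strands) lies in them, so no letter is in capitals, but TGANTCA begins 9 bases after the start.

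Gpnmb: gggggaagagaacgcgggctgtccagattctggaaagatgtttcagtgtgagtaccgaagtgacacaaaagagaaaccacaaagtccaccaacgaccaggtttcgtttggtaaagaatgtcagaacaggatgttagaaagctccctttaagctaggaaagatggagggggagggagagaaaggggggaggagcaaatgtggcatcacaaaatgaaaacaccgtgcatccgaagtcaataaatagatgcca

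RefSeq windows of 300 bases, from 250 before to 50 after the start, were found for 6 of the 7 genes, of which 3 held any of these motifs. The window of Lgals3 begins at a start 6109 bases from that of the annotated gene. Of all 32851 windows, 7.81% held TGANTCA, 7.15% CACGTG and 9.35% AGGAAGT, and these are matches of letters only. The 4 MiT/TFE factors (Mitf, Tfeb, Tfe3 and Tfec), transcription factors of lysosome genes known to drive Gpnmb, gave 0 calls in either direction from con to Lt, Mt or Ht. Mitf and Tfec passed the p threshold from con to Ht without reaching the fold (log2 0.71 and 0.83, adjusted p = 0.0256 and 0.0418), and with scaling by total counts all 4 were called higher there, close to the shift of all genes (median 1.504 against 1.27).

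Lgals3 (ENSMUSG00000050335, chr14:47367751-47386160, plus strand) rose with Spp1 and Trem2. It was 11.4 and 5.35 CPM in con, 20.8 in L-con, 36.6 and 68.0 for the Lt pair, 45.9 and 60.8 for the Mt3 pair, 59.4 and 116 for the Mt2 pair, 84.0 and 104 for the Mt1 pair and 110 and 99.9 for the Ht pair. The libraries with tumor all lay above con and L-con, and each of Lt, Mt3, Mt2, Mt1 and Ht overlapped its neighbour. The change was 2.65 ± 0.46 on the log2 scale from con to Lt (6.26-fold, adjusted p = 0.0060) and 3.63 ± 0.48 from con to Ht (12.4-fold, adjusted p = 2.9e-04). Without con replicate 2 the first was 2.18 and was not called (adjusted p = 0.0606). From Lt to Ht the change of 0.98 ± 0.42 was not called (adjusted p = 0.0871), and without Lt replicate 2 it was 1.51 (adjusted p = 0.0455). Lgals3 was also called there with DESeq2 (1.08, adjusted p = 0.0419), with scaling by total counts (1.83, adjusted p = 0.0175), with no filter, with only the groups compared, in the joint fit with sorted cells and with Ht as 3 samples (1.01 to 1.11, adjusted p from 1.0e-04 to 0.0494).

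Cd9 (ENSMUSG00000030342, chr6:125460266-125494791, minus strand) had the smallest change of the 7 from con to Ht. It was 47.3 and 28.9 CPM in con, 34.5 in L-con, 63.4 and 54.9 for the Lt pair, 46.2 and 59.5 for the Mt3 pair, 62.0 and 87.1 for the Mt2 pair, 81.7 and 80.0 for the Mt1 pair, and 82.1 and 83.9 for the Ht pair. Of the 5 tissue comparisons, it passed the fold threshold only from con to Ht (2.15-fold, log2 1.10 ± 0.26, adjusted p = 0.0046), and not without con replicate 2 (0.79, adjusted p = 0.0346). From con to Mt the change was 0.83 ± 0.22 (adjusted p = 0.0147), under the fold threshold, and it was 1.23 without con replicate 1 (adjusted p = 0.0108). With scaling by total counts Cd9 was also called from con to Mt (1.48, adjusted p = 0.0045) and from Lt to Ht (1.37, adjusted p = 0.0089). Gm28809 and Gm26728 overlap Cd9 on the other strand and held at most 29 and 5 counts in any library, and the strand setting of the counting was not given in the sources used here.

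Apoe (ENSMUSG00000002985, chr7:19696109-19699188, minus strand) went down in tissue. Its level was 24488 and 27359 CPM in con, 22389 in L-con, 26382 and 15555 for the Lt pair, 17184 and 15021 for the Mt3 pair, 15918 and 5618 for the Mt2 pair, 10459 and 5033 for the Mt1 pair, and 2611 and 2591 for the Ht pair. Both Ht samples lay below all other tissue libraries, and the replicates of Lt, Mt2 and Mt1 were far apart. Apoe fell 10.1-fold from con to Ht (log2 -3.33 ± 0.75, adjusted p = 0.0039), 8.17-fold from Lt to Ht (log2 -3.03 ± 0.74, adjusted p = 0.0109) and 4.25-fold from Mt to Ht (log2 -2.09 ± 0.64, adjusted p = 0.0455). From con to Lt the difference of -0.30 ± 0.69 was within its error (adjusted p = 0.789), and from con to Mt it was -1.25 ± 0.53 (adjusted p = 0.0776). The call from Lt to Ht was lost without Lt replicate 1 or either Ht sample (-2.59, -3.03 and -3.02, adjusted p = 0.0654, 0.0859 and 0.0858). That from Mt to Ht was lost without Mt3 replicate 1 (-2.06, adjusted p = 0.0905), Mt3 replicate 2 (-2.12, adjusted p = 0.0775), Mt1 replicate 1 (-1.88, adjusted p = 0.0828) or either Ht sample (-2.09 and -2.08, adjusted p = 0.262 and 0.249). It was also lost with only the groups compared (-2.10, adjusted p = 0.0577), with Mt as 1 group (-2.15, adjusted p = 0.0588) and with Ht_1 and Ht_2 only (-2.01, adjusted p = 0.0536). Without Mt2 replicate 1 the change from con to Mt was -1.56 and was called (adjusted p = 0.0132). It was also called with DESeq2 (-1.30, adjusted p = 0.0036), with no filter (-1.23, adjusted p = 0.0044), in the joint fit with sorted cells (-1.23, adjusted p = 0.0254) and with the replicate number as a block (-1.35, adjusted p = 0.0397).

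Hepatocyte markers stood beside Apoe in each tissue library. The mean log2(CPM + 1) of the 12 markers averaged 12.9 over the con libraries, 12.4 over Lt, 12.3 over Mt3, 11.1 over Mt2, 10.8 over Mt1 and 7.40 over Ht. Apoe stood 1.77 ± 0.19 (SD, n = 2) above this score for con, 1.88 ± 0.058 for Lt, 1.68 ± 0.035 for Mt3, 2.08 ± 0.35 for Mt2, 2.03 ± 0.49 for Mt1 and 3.94 ± 0.28 for Ht. Within Mt2, the library with 5618 CPM of Apoe had 12259 CPM of Alb, the albumin gene of hepatocytes, and that with 15918 CPM of Apoe had 57719 CPM. In the sorted cells the score was 3.14 in F4/80+ and 2.52 in CD11b+ cells, and Apoe stood 10.7 ± 0.3 and 11.2 ± 0.2 above it (SD, n = 3).

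**Figure D3:**
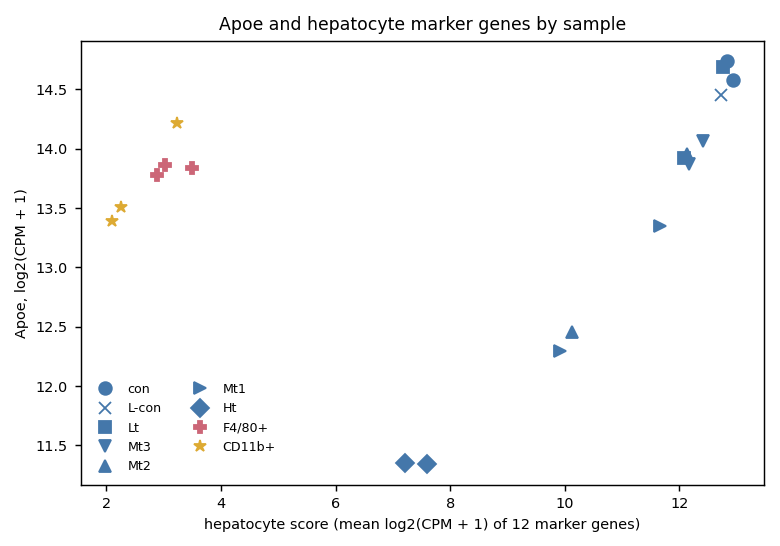
Apoe, as log2(CPM + 1), against the mean log2(CPM + 1) of 12 hepatocyte markers, with 1 symbol per sample. In tissue Apoe goes down with the markers from con (score 12.9) to Ht (7.40), and the sorted cells, at scores of 3.14 and 2.52, stand apart with Apoe between 10714 and 19013 CPM.

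Of 14 genes of lipid uptake, storage and efflux, 4 were called higher and 8 lower from con to Ht. There, 25.8% of all genes were called higher and 24.1% lower. The median of the list was -1.44, where that of all genes was 0.09. Soat1, which esterifies cholesterol, rose from 8.20 to 56.4 CPM (log2 2.76 ± 0.42, adjusted p = 5.5e-04) and Msr1, a scavenger receptor, from 20.8 to 73.7 CPM (log2 1.81 ± 0.19, adjusted p = 1.4e-04). Nr1h3, the nuclear receptor LXR alpha, fell from 162 to 11.8 CPM (log2 -3.81 ± 0.56, adjusted p = 4.5e-04) and Cd36, a fatty acid transporter, from 78.9 to 13.5 CPM (log2 -2.56 ± 0.43, adjusted p = 8.0e-04). With scaling by total counts the same list gave 4 higher and 2 lower, with a median of -0.25 where that of all genes was 1.27.

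Fabp5 (ENSMUSG00000027533, chr3:10012548-10016607, plus strand) was lowest in Ht. It was 98.1 and 45.2 CPM in con, 60.7 in L-con, 102 and 90.2 for the Lt pair, 128 and 80.3 for the Mt3 pair, 78.1 and 39.2 for the Mt2 pair, 35.1 and 32.9 for the Mt1 pair, and 8.44 and 6.48 for the Ht pair. The libraries of Ht lay below all others, those of Mt1 below all of con, Lt, Mt3 and Mt2, and con overlapped Lt, Mt3 and Mt2, while Mt2 lay below Lt and Mt3. Fabp5 fell 9.69-fold from con to Ht (log2 -3.28 ± 0.45, adjusted p = 3.5e-04), 13.04-fold from Lt to Ht (log2 -3.70 ± 0.46, adjusted p = 0.0030) and 7.91-fold from Mt to Ht (log2 -2.98 ± 0.41, adjusted p = 0.0086). The last call was lost without either Ht sample (-3.19 and -2.81, adjusted p = 0.139 and 0.0845). From con to Lt the difference of 0.43 ± 0.41 was not called (adjusted p = 0.506), nor was that of -0.29 ± 0.33 from con to Mt (adjusted p = 0.485). Gene entries with names that begin with Fabp5l or AC109261 held at most 4 counts in any library. Other copies of Fabp5 were not searched for, and how reads were split between copies is uncertain.

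Relatives of the 7 genes (other TREM receptors, fatty acid binding proteins, tetraspanins and galectins among them) moved in both directions. Of 25, 19 passed the filter in tissue, with the osteopontin-like matrix genes Ibsp, Dmp1, Mepe and Dspp among the 6 not tested. From con to Ht 8 were called higher and 5 lower, where 25.8% of all genes were called higher and 24.1% lower. Their median was -0.38, where that of all genes was 0.09. Scaling by total counts gave 9 higher and 2 lower, with a median of 0.80 where that of all genes was 1.27. Lgals7 had 0 counts in both con libraries and 89.7 and 116 CPM for the Ht pair, at least 772-fold higher than a floor of 3 counts over both con libraries. Trem1, a receptor of neutrophils and monocytes, also had 0 counts in con and 2.15 and 2.31 CPM for the Ht pair, at least 16.7-fold higher. Fabp1, the liver fatty acid binding protein, fell from 2590 to 28.6 CPM (log2 -6.51 ± 0.82, adjusted p = 2.5e-04) and Fabp2 from 61.0 to 1.93 CPM (log2 -5.03 ± 0.76, adjusted p = 5.1e-04).

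In the sorted cells all 7 genes were detected in all 6 libraries. Between CD11b+ and F4/80+ cells 0 of the 7 were called by edgeR, where 0.0771% of 14263 genes were called, 0.00701% higher and 0.0701% lower in F4/80+ cells, and DESeq2 also called 0. At an unadjusted p under 0.05 there were 2, Fabp5 and Cd9, where 1503 of the 14263 genes tested were under it. Cd9 was 28.1, 28.4 and 35.3 CPM in F4/80+ cells and 45.7, 58.1 and 66.6 CPM in CD11b+ cells, without overlap (log2 -0.94 ± 0.19, adjusted p = 0.107). Fabp5 was 19.7, 13.2 and 11.6 CPM in F4/80+ cells and 16.6, 26.2 and 24.8 CPM in CD11b+ cells, and the libraries overlapped (log2 -0.66 ± 0.26, adjusted p = 0.464). Neutrophil markers moved with the sort, with a summed level of 189 to 513 CPM in F4/80+ and 1344 to 3729 CPM in CD11b+ cells, and so did Kupffer cell markers, with 602 to 2384 CPM in F4/80+ and 56.0 to 124 CPM in CD11b+ cells. Platelet markers summed to 87.2 to 129 CPM in F4/80+ and 136 to 167 CPM in CD11b+ cells, and endothelial markers to 221 to 365 and 136 to 156 CPM. Fibroblast and stellate markers summed to 351 to 534 CPM in F4/80+ and 168 to 315 CPM in CD11b+ cells. Monocyte markers summed to 2077 to 3053 CPM in F4/80+ and 3311 to 5134 CPM in CD11b+ cells. The part of these cells in the Cd9 difference was not tested.

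Compared with Mt2 tissue, the 7 genes split. From Mt2 to F4/80+ cells 3 were called higher and 2 lower (42.3% of 18407 genes called, 17.2% higher and 25.2% lower), and from Mt2 to CD11b+ cells 2 were called higher and 1 lower (43.9% called, 17.6% higher and 26.3% lower). From Ht, 3 were called higher and 2 lower in F4/80+ cells (39.7% called, 18.5% higher and 21.1% lower) and 4 higher and 0 lower in CD11b+ cells (41.3% called, 18.8% higher and 22.4% lower). Tissue and sorted cells were counted in separate tables, so the kind of sample and its table cannot be told apart. With scaling by total counts the share of calls that were higher went from 46.7% to 29.5% from Ht to F4/80+ and from 45.6% to 28.0% from Ht to CD11b+ cells. The antigens of the sort were present: Adgre1, which encodes F4/80, was 692 to 785 CPM in F4/80+ and 508 to 547 CPM in CD11b+ cells, and Itgam, which encodes CD11b, was 245 to 296 and 350 to 439 CPM.

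**Figure D4:**
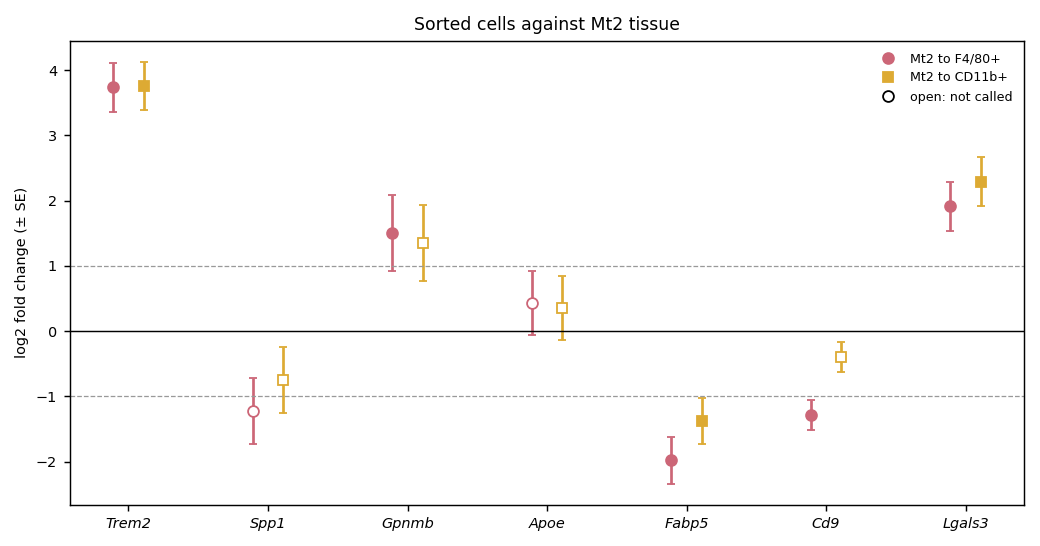
log2 fold change (± SE, from the fit over all 19 samples) of each gene from Mt2 tissue to F4/80+ and to CD11b+ cells; filled symbols were called and open symbols were not. Trem2 and Lgals3 were called higher and Fabp5 lower in both populations, Gpnmb higher and Cd9 lower in F4/80+ cells, and Spp1 and Apoe in neither, with Spp1 in F4/80+ cells close to the threshold (adjusted p = 0.0537).

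Trem2 and Lgals3 were higher in the sorted cells than in any tissue. Trem2 was 263, 253 and 260 CPM in F4/80+ and 228, 250 and 310 CPM in CD11b+ cells, 13.3-fold (log2 3.74 ± 0.37, adjusted p = 1.4e-06) and 13.5-fold (log2 3.76 ± 0.37, adjusted p = 1.1e-06) above Mt2. Lgals3 was 333, 320 and 337 CPM in F4/80+ and 324, 449 and 517 CPM in CD11b+ cells, 3.76-fold (log2 1.91 ± 0.37, adjusted p = 5.5e-04) and 4.90-fold (log2 2.29 ± 0.38, adjusted p = 1.3e-04) above Mt2. For both genes no sorted library overlapped a tissue library, and both were also called against Ht in each population.

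Gpnmb was 21.3, 25.8 and 27.0 CPM in F4/80+ and 12.5, 30.9 and 23.2 CPM in CD11b+ cells. The change from Mt2 was 1.51 ± 0.59 in F4/80+ cells (adjusted p = 0.0419) and 1.35 ± 0.58 in CD11b+ cells (adjusted p = 0.0612), and neither population differed from Ht by its test (adjusted p = 0.415 and 0.548). The first call was lost without any single Mt2 or F4/80+ library (adjusted p from 0.0545 to 0.189), and the second comparison was called without CD11b+ replicate 1 (log2 1.67, adjusted p = 0.0314). The first was also lost with scaling by total counts (1.47, adjusted p = 0.0779). The second was also called with DESeq2 (1.37, adjusted p = 0.0385), with no filter (1.41, adjusted p = 1.6e-05) and with only the groups compared (1.36, adjusted p = 0.0399).

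In the sorted cells Spp1 was 186, 92.7 and 217 CPM in F4/80+ and 241, 378 and 68.8 CPM in CD11b+ cells, where Mt2 tissue had 284 and 487 CPM. The difference from Mt2 was -1.22 ± 0.51 in F4/80+ (adjusted p = 0.0537) and -0.75 ± 0.51 in CD11b+ cells (adjusted p = 0.221). Against Ht it was called lower in F4/80+ cells (log2 -1.28 ± 0.51, adjusted p = 0.0474) and not in CD11b+ cells (-0.80 ± 0.51, adjusted p = 0.194). The call against Ht was lost without any single Ht or F4/80+ library (adjusted p from 0.0536 to 0.176) and with the replicate number as a block (-1.001, adjusted p = 0.1799). Without CD11b+ replicate 2, which had the highest Spp1 of the sorted libraries, CD11b+ cells were called lower than Mt2 (-1.29, adjusted p = 0.0490) and than Ht (-1.34, adjusted p = 0.0441), and without Mt2 replicate 1 F4/80+ cells were called lower than Mt2 (-1.56, adjusted p = 0.0457). F4/80+ cells were also called lower than Mt2 with DESeq2 (-1.24, adjusted p = 0.0310), with DESeq2 size factors in edgeR, with no filter, with at least 10 counts in every library and with only the groups compared (-1.27 to -1.21, adjusted p from 1.7e-04 to 0.0495).

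Cd9 and Fabp5 differed between the sorted cells and tissue in part of the comparisons. Cd9 was called lower than Mt2 in F4/80+ cells (log2 -1.28 ± 0.23, adjusted p = 2.5e-04) and fell short of the fold without Mt2 replicate 2 (-0.97, adjusted p = 0.0069). In CD11b+ cells its difference from Mt2 was -0.39 ± 0.23 (adjusted p = 0.153). Against Ht, Cd9 was called lower in F4/80+ cells (-1.44 ± 0.23, adjusted p = 1.1e-04). In CD11b+ cells it was -0.55 ± 0.23 (adjusted p = 0.0540), and with scaling by total counts -1.04 and called (adjusted p = 0.0065). Fabp5 was 3.95-fold below Mt2 in F4/80+ cells (log2 -1.98 ± 0.36, adjusted p = 3.0e-04) and 2.60-fold below in CD11b+ cells (log2 -1.38 ± 0.35, adjusted p = 0.0041), the latter lost without Mt2 replicate 1 (-0.80, adjusted p = 0.110). Against Ht, where Fabp5 was lowest, CD11b+ cells were higher (log2 1.59 ± 0.38, adjusted p = 0.0029), while F4/80+ cells were just under the fold (0.99 ± 0.37, adjusted p = 0.0399) and were called without F4/80+ replicate 2 or 3 (1.11 and 1.18, adjusted p = 0.0436 and 0.0292) and with the replicate number as a block (1.03, adjusted p = 0.0220).

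Apoe was 14654, 14908 and 14027 CPM in F4/80+ and 11682, 10714 and 19013 CPM in CD11b+ cells, which is 1.63% and 1.47% of all counts on average. It did not differ from Mt2 beyond its error (log2 0.43 ± 0.49 and 0.36 ± 0.49, adjusted p = 0.474 and 0.551). It was 5.59-fold higher than Ht in F4/80+ cells (log2 2.48 ± 0.54, adjusted p = 0.0015) and 5.31-fold higher in CD11b+ cells (log2 2.41 ± 0.53, adjusted p = 0.0017).

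Genes of the lists around the members were also measured in the sorted cells. Of all genes, 17.2% were called higher and 25.2% lower from Mt2 to F4/80+ cells, and 17.6% and 26.3% from Mt2 to CD11b+ cells. From Mt2 to F4/80+ cells 7 of 8 TREM2 signaling genes were called higher, with Card9 from 4.45 to 81.1 CPM (log2 4.17 ± 0.42, adjusted p = 1.6e-06) and Inpp5d from 45.9 to 589 CPM (log2 3.68 ± 0.37, adjusted p = 1.5e-06). All 4 MiT/TFE factors were called higher in each population, led by Tfeb (12.9 to 58.2 CPM in F4/80+ cells, log2 2.18 ± 0.25, adjusted p = 4.7e-06) and Tfec (5.55 to 24.2 CPM, log2 2.12 ± 0.31, adjusted p = 5.3e-05). Of the 14 lipid genes 6 were called higher and 1 lower. The cholesterol exporter Abcg1 (19.7 to 144 CPM, log2 2.87 ± 0.19, adjusted p = 1.0e-07) and the lysosomal cholesterol carrier Npc2 (225 to 1025 CPM, log2 2.19 ± 0.32, adjusted p = 5.4e-05) rose most. Fabp4, a fatty acid binding protein, fell (13.5 to 2.62 CPM, log2 -2.36 ± 0.43, adjusted p = 3.4e-04). Of 8 osteopontin receptors 3 were called higher and 1 lower.

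Other genes used to mark lipid-associated macrophages, 16 in all, gave 8 called higher and 1 lower from con to Ht, with a median of 1.82. There, 25.8% of all genes were called higher and 24.1% lower. From Mt2 to F4/80+ cells 10 were called higher and 3 lower, with a median of 1.67. Of all genes, 17.2% were called higher there and 25.2% lower. With scaling by total counts, con to Ht gave 12 and 1 (median 3.01, all genes 1.27). Mt2 to F4/80+ cells then gave 8 and 3 (median 1.67, all genes -0.11). From con to Ht, Capg, an actin-capping protein, rose from 2.37 to 169 CPM (log2 6.14 ± 0.58, adjusted p = 9.9e-05) and Cd63, a tetraspanin of late endosomes, from 5.28 to 335 CPM (log2 5.97 ± 0.55, adjusted p = 9.4e-05), while Igf1, a growth factor made mainly by liver, fell from 792 to 46.6 CPM (log2 -4.11 ± 0.62, adjusted p = 5.1e-04). From Mt2 to F4/80+ cells, Lilrb4a, an inhibitory receptor of myeloid cells, rose from 7.12 to 173 CPM (log2 4.58 ± 0.72, adjusted p = 8.7e-05) and Itgax, the CD11c chain, from 19.5 to 265 CPM (log2 3.76 ± 0.53, adjusted p = 3.6e-05). Igf1 (369 to 28.2 CPM, log2 -3.71 ± 0.48, adjusted p = 1.5e-05) and Csf1, the growth factor of macrophages (139 to 22.3 CPM, log2 -2.64 ± 0.33, adjusted p = 9.8e-06), fell.

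Set against the macrophage markers of the same sample, the members differed. With each level as log2(CPM + 1) minus the mean of the 12 macrophage markers on the same scale, Trem2 went from -3.50 in con to -1.73 in Ht, and was -1.91 in F4/80+ and -1.77 in CD11b+ cells. Lgals3 went from -1.69 in con to -0.40 in Ht and was -1.56 and -1.08 in the sorted cells. Spp1 was 0.35 in con, 2.25 in Lt, 1.52 in Ht, and -2.64 and -2.27 in the sorted cells. Cd9 was 0.41 in con, -0.73 in Ht, and -4.95 and -3.97 in the sorted cells, and Fabp5 fell from 1.24 in con by way of 0.33 in Lt to -4.05 in Ht. Gpnmb went from -4.51 in con to -2.98 in Ht and was -5.25 and -5.35 in the sorted cells. Apoe went from 9.82 in con to 4.22 in Ht and was 3.90 in both sorted populations. The group mean of each of the 7 genes stood higher against the macrophage markers in Ht than in F4/80+ or CD11b+ cells. For Trem2 the difference was smaller than the SD of 0.19 between the Ht samples, and for Apoe CD11b+ replicate 3 (4.16) lay above Ht replicate 2 (4.14). With a pseudocount of 0.1 in place of 1, the difference from con to Ht went from 1.77 to 2.31 for Trem2, from 1.53 to 3.29 for Gpnmb and from -1.14 to -1.24 for Cd9.

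**Figure D5:**
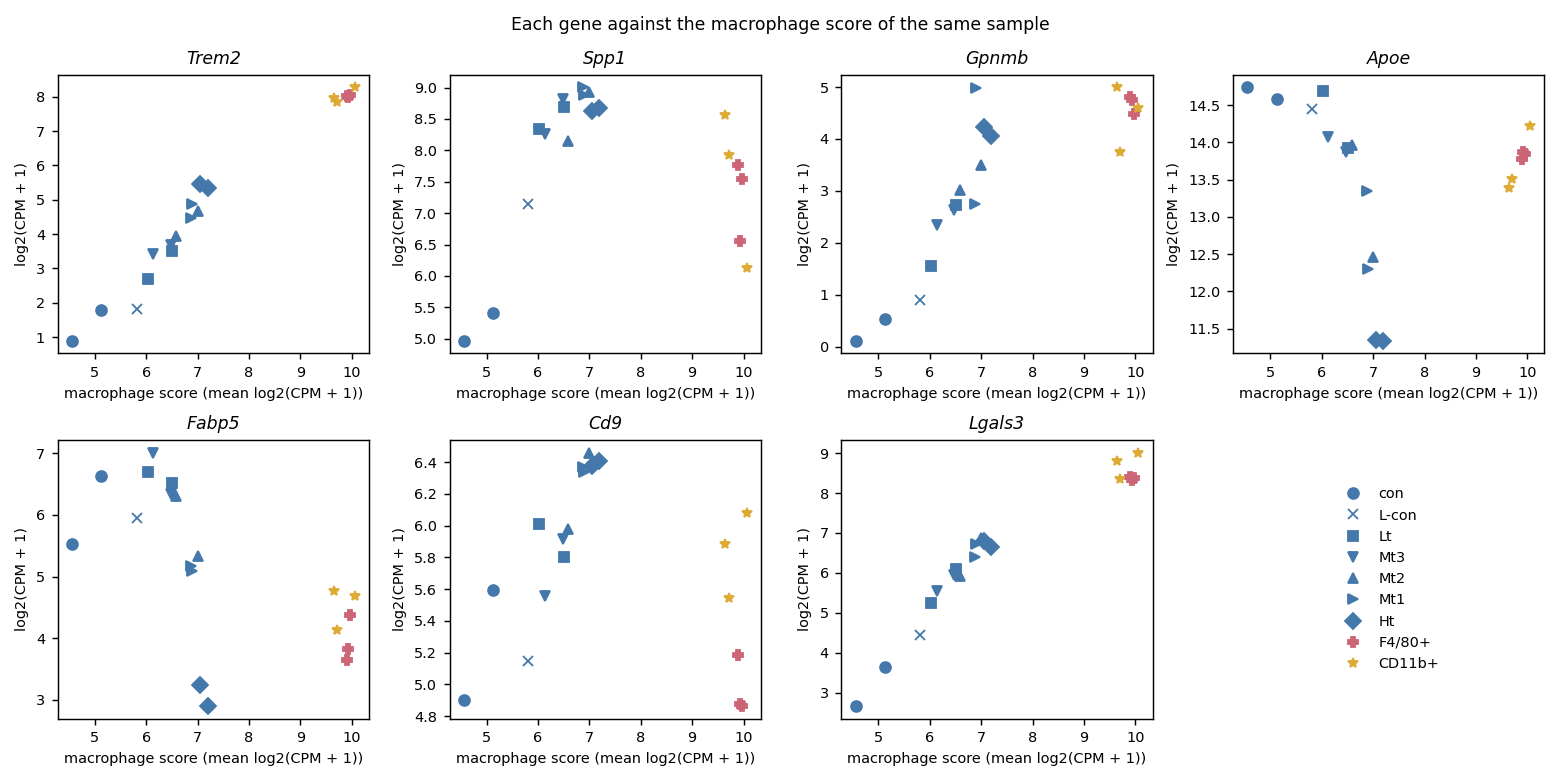
Each gene, as log2(CPM + 1), against the macrophage score (mean log2(CPM + 1) of 12 markers) of the same sample; symbols mark groups. Trem2 and Lgals3 are highest in the sorted cells, whose scores are near 9.9 and 9.8, while for Spp1 the sorted libraries lie among the tissue values. For Cd9 the F4/80+ libraries lie near or below con, and for Fabp5 all sorted libraries lie between Ht and Mt1.

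Per kilobase of gene length, Apoe was the highest of the 7 in every group (12125 CPM per kb in con, 1216 in Ht, 6796 in F4/80+ cells). In Ht it was followed by Spp1 (243), Lgals3 (56.6), Cd9 (40.6), Trem2 (8.33), Gpnmb (2.56) and Fabp5 (2.09). In F4/80+ cells the order was Apoe, Lgals3 (178), Spp1 (100), Trem2 (52.3), Cd9 (14.98), Fabp5 (4.16) and Gpnmb (3.79).

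Likeness of profiles over the 13 tissue samples was measured as the root mean square difference of centred log2(CPM + 1) values, 0 meaning identical, among 13762 other genes. The nearest genes were Pdgfra (0.13), Prag1 (0.19) and Ctxn1 (0.19) to Trem2, Zbp1 (0.27), Cd52 (0.31) and Aif1 (0.32) to Spp1, and Col12a1 (0.26), Ndst3 (0.33) and Adam8 (0.33) to Gpnmb. They were Cyb5a (0.11), Aldh2 (0.12) and Gucd1 (0.13) to Apoe, Id2 (0.43), Cd302 (0.44) and Gm8883 (0.44) to Fabp5, Kdelc1 (0.13), Rbbp8 (0.15) and Capn5 (0.15) to Cd9, and Fxyd5 (0.12), Slfn2 (0.15) and Ckap2 (0.15) to Lgals3. Among the members, Spp1 and Lgals3 (0.40), Trem2 and Gpnmb (0.40) and Trem2 and Lgals3 (0.41) were closest and Gpnmb and Apoe (2.48) and Trem2 and Apoe (2.47) were farthest apart. With the sorted cells included, 1 of these 21 nearest genes was still among the 3 nearest.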

How the data were processed

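The authors deposited raw counts of reads per gene, without normalization, for 14 tissue libraries and 6 libraries of sorted cells. The submitters' processing notes name CASAVA, HISAT2 2.0.5, featureCounts 1.5.0-p3 and GRCm38/mm10. All count columns were matched to samples and 0 were left unmapped. Counts were analysed with edgeR 4.0.16 in R 4.3.3 (filterByExpr, TMM, glmQLFit and glmQLFTest, Benjamini-Hochberg over all genes tested). The 5 tissue comparisons came from a fit of 13 samples, that of the sorted populations from 6, and those of sorted cells with tissue from 19. CPM values all come from the last. Ht_1 and Ht_3 were summed, although their counts differed by more than sampling noise (chi-square per degree of freedom 27.6, against 26.7 for Ht_1 and Ht_2 and 12.1 for Ht_2 and Ht_3). SE is the log2 change divided by the root of the F statistic. Per the study's methods each tissue group but L-con had 2 livers. Neither the labels nor the methods say whether sorted replicates came from separate animals, and there p-values measure the spread between these samples.

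The members and gene lists were chosen with earlier results of these data known. Named genes are the 7 members, the 3 nearest profiles of each, at most 2 called genes with the largest rise and 2 with the largest fall of each list where it is described, and Adgre1, Itgam, Alb and Tyrobp for reference. Mitf and Tfec in tissue fall outside this rule. DESeq2 1.42.0, other scalings, filters and sample choices were tried as alternatives. Promoter sequences are RefSeq's for GRCm38.p6. Same-numbered replicates did not deviate together between the groups compared, so no block was used. They did deviate together among Mt3, Mt2 and Mt1, which make up Mt.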

Additional observations from a re-analysis of the deposited data

Results flagged for a closer look

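Gpnmb was 30.7 CPM in Mt1 replicate 2, far from the other 5 Mt libraries, of which the nearest had 10.2 CPM. These libraries pool Mt3 of day 9 with Mt2 and Mt1 of day 11, which Dixon's test takes as 1 population. The gap was 0.769 of the range over the 6 libraries, more than Dixon's test allows at the 95% level. The same test marked no Mt library for the other 6 genes, and chance alone marks about 5% of such groups.

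L-con, the single library of liver remote from tumor, was used in no comparison. Spp1 was 141 CPM there (exact 95% interval of the count 134 to 148, counting error only), above both con libraries (30.4 and 41.5 CPM). Lgals3 was 20.8 CPM (18.3 to 23.6), above 5.35 and 11.4 CPM in con. Apoe was 22389 CPM (22303 to 22476), below 24488 and 27359 CPM in con. The intervals of the other 4 genes (Trem2, Gpnmb, Fabp5 and Cd9) overlapped the con range. Macrophage markers summed to 1175 CPM in L-con and to 505 and 785 CPM in con, Kupffer cell markers to 959 CPM and to 337 and 448 CPM, and hepatocyte markers to 165255 CPM and to 184144 and 210632 CPM. Neutrophil markers were 16.6 CPM in L-con against 3.62 to 5.22 CPM in con, fibroblast and stellate markers 703 against 296 to 409 CPM, and monocyte markers 2431 against 1806 to 1831 CPM (mean log2(CPM + 1) 4.203 against 2.12 to 2.46). Their part in these values was not tested. Apoe minus the hepatocyte score (log2) was 1.72 in L-con, between 1.64 and 1.90 in the con pair.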

How the results depend on the processing

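Most values for the 7 genes kept their direction, and those that turned were not called before or after. Spp1 from Mt to Ht turned to 0.0046 with DESeq2, 0.0047 with DESeq2 size factors in edgeR, 0.47 with scaling by total counts, 0.033 with no filter and 0.034 with Ht_1 and Ht_2 only. With scaling by total counts Fabp5 from con to Mt turned to 0.32, Trem2 from CD11b+ to F4/80+ to 0.035 and Gpnmb from Ht to CD11b+ to -0.068. Without each library in turn, the ranges that crossed 0 were -0.14 to 0.093 for Spp1 from Mt to Ht, -0.057 to 0.30 for Spp1 from Lt to Ht, -0.75 to 0.38 for Fabp5 from con to Mt, -0.040 to 1.09 for Fabp5 from con to Lt, -0.74 to 0.022 for Apoe from con to Lt, -0.090 to 1.37 for Apoe from Mt2 to F4/80+ and -0.18 to 1.30 for Apoe from Mt2 to CD11b+. From CD11b+ to F4/80+ they were -0.19 to 0.41 for Gpnmb, -0.14 to 0.33 for Apoe, -0.95 to 0.045 for Spp1 and -0.17 to 0.072 for Trem2. The cause was not tested. The number of members called ran from 1 to 4 from con to Lt, 2 to 5 from Lt to Ht, 0 to 4 from Mt to Ht and 3 to 5 from Mt2 to F4/80+ without each library in turn, and was 1 from Mt to Ht with Mt as 1 group. Of the nearest profiles, 1 of 21 was kept with 19 samples.

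Over all genes, Mt to Ht gave 2563 calls, 4358 with scaling by total counts, 3888 with no fold threshold and 0 without either Ht sample. CD11b+ to F4/80+ gave 11, 300 with DESeq2, 242 with no filter, 78 with the replicate number as a block, 6 with scaling by total counts, 5 with at least 10 counts in every library and 0 to 136 without 1 library. From con to Lt there were 2177, 1154 with at least 10 counts in every library, and 1428, 735 and 918 without con replicate 1, con replicate 2 and Lt replicate 2. From con to Mt there were 5247, 8115 with no fold threshold, 3241 with at least 10 counts in every library and 3089 without con replicate 2. From Lt to Ht there were 5480, 8297 with scaling by total counts, and 2786, 3157 and 3533 without Lt replicate 1, Ht replicate 1 and Ht replicate 2. The same minimum of 10 counts took Mt2 to F4/80+ from 7793 to 3742, Mt2 to CD11b+ from 8082 to 3870, Ht to F4/80+ from 7307 to 3510 and Ht to CD11b+ from 7596 to 3633.

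Same-numbered replicates did not deviate together in the tissue groups compared (r of deviations from -0.388 to -0.098). Among Lt, Mt3, Mt2 and Mt1, which were not compared with each other, they did in 6 of 6 pairs of groups (r from 0.24 to 0.72). Mt is the mean of Mt3, Mt2 and Mt1, for which r was 0.37 (Mt3 and Mt2), 0.24 (Mt3 and Mt1) and 0.72 (Mt2 and Mt1). Without a block, the tests from con to Mt and from Mt to Ht take these libraries as independent. With the replicate block the members called were 4 from con to Lt, 5 from con to Mt, 7 from con to Ht, 4 from Lt to Ht, 3 from Mt to Ht and 0 from CD11b+ to F4/80+, and Apoe was then called lower from con to Mt (-1.35, adjusted p = 0.0397 by edgeR). With the numbers exchanged, chosen after seeing the data, 3, 5 and 3 were called from con to Lt, con to Mt and Mt to Ht. With 2 libraries in most tissue groups, small changes of low genes such as Gpnmb, with 5 and 1 counts in con, are limited by depth.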
